A study of Mus musculus and Ictidomys tridecemlineatus with 36 samples.

Results

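Wide stretches of H3K4me1 that carry no other profiled peak were collected from CUT&RUN peak lists of postnatal day 5 (P5) retina of the 13-lined ground squirrel (13LGS) and postnatal day 2 (P2) mouse retina. A domain is an H3K4me1 peak at least 5000 bp wide that shares not even 1 bp with a peak of H3K4me3, H3K27ac, Otx2, or Neurod1 of the same species. The rule found 97 domains among 141578 H3K4me1 peaks in 13LGS and 331 among 135798 in mouse, 428 in all out of 532904 peaks in the 10 lists. The members were therefore chosen on measured values, namely peak width and the absence of the other 4 lists, and these are given below as a description.

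The study compared whole retinas of a cone-dominant squirrel and of the rod-dominant mouse at ages rich in late progenitors and photoreceptor precursors, and no genotype or treatment distinguished the samples within a species. A biological replicate pooled retinas of 2 animals in 13LGS and of 3 in mouse. The 36 libraries comprised 16 from 13LGS and 20 from mouse, including 3 and 2 IgG controls. For 13LGS, 1 library stands behind each histone list, 6 behind Otx2, and 4 behind Neurod1; for mouse these numbers are 2, 8, and 4, and Otx2 was profiled with antibodies from 2 suppliers in both species. Each list gives 1 value per peak for all its libraries together, so there is no spread between replicates, read depth is unknown, and no difference below was tested. The intervals given are 95% Wilson intervals, which cover counting error alone and treat regions as independent, although neighbouring domains are not. The retina is a mixture of cell types, and a domain carried by few cells cannot be told apart from a weak domain in many. The label of the tissue was checked on the mouse lists: an H3K4me3 peak lay within 1 kb of the 5′ end of 15 of 15 eye field and progenitor factors and 12 of 15 photoreceptor precursor factors, against 3 of 34 regulators of other lineages and 52.6% of all protein-coding genes. Other retinal lists lay closer to that share. The counts were 12 of 20 ganglion, amacrine, and horizontal cell factors, 9 of 18 bipolar and Müller glia genes, and 8 of 21 phototransduction genes. Lists not particular to retina were also high, with 28 of 34 Notch and Wnt pathway genes and 31 of 38 axon guidance genes. Neuronal adhesion and synapse genes had 30 of 42. The check therefore does not by itself identify the tissue as retina.

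Monomethylation of histone H3 at lysine 4 is a mark of enhancers and of the flanks of promoters. It is joined by H3K27ac at active enhancers and gives way to H3K4me3 at active promoters, so H3K4me1 without these marks is commonly read as a poised or primed state. Otx2 and Neurod1 are transcription factors of photoreceptor and bipolar cell precursors.

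Sequences from GRCm38 show what lies under the mouse domains. The first set is the 300 bp around the summit of the widest domain, in an intron of Trio (chr15:27955912-27956211), of the second widest, in an intron of Prdm16 (chr4:154500519-154500818), and of the domain with the highest fold enrichment, in an intron of Efna5 (chr17:62625262-62625561), all on the plus strand. Capitals mark TAATCC, a core recognised by Otx2 and related homeodomains, or CAGATG, an E-box bound by Neurod1 and related factors, on either strand.
Trio: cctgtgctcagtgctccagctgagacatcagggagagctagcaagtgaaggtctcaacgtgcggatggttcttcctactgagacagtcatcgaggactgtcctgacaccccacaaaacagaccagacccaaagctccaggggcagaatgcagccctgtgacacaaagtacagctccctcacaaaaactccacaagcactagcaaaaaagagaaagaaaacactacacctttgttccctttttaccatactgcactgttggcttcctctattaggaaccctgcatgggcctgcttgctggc
Prdm16: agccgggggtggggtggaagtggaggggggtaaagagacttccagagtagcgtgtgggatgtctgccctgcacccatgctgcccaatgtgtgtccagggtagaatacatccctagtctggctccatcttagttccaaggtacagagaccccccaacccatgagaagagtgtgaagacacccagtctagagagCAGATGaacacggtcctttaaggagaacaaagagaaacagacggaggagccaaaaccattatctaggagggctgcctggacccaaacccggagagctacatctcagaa
Efna5: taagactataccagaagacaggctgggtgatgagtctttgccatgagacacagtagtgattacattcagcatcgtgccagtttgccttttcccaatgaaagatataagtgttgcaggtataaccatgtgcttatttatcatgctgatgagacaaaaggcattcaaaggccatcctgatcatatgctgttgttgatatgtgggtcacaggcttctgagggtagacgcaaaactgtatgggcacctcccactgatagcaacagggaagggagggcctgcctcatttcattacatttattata
CAGATG occurred once in the Prdm16 window, and neither motif was found in the Trio and Efna5 windows. The second set is the RefSeq promoters (GRCm38.p6, 250 bases before to 50 after the start, on the strand of the gene) of 4 genes whose annotated 5′ end lies in a domain. Sp9 (chr2:73271676-73271975, plus strand) and Irx2 (chr13:72628570-72628869, plus strand) are from the CpG-rich end of the domains described below, and Slc7a11 (chr3:50443564-50443863, minus strand) and Grrp1 (chr4:134254057-134254356, minus strand) from the CpG-poor end. Capitals mark CG.
Sp9: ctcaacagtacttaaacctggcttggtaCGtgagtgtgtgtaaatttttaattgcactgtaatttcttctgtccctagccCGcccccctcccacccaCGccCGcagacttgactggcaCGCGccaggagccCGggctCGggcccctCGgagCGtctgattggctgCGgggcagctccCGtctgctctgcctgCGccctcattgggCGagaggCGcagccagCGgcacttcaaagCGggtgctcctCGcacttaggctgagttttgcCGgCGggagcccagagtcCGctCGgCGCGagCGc
Irx2: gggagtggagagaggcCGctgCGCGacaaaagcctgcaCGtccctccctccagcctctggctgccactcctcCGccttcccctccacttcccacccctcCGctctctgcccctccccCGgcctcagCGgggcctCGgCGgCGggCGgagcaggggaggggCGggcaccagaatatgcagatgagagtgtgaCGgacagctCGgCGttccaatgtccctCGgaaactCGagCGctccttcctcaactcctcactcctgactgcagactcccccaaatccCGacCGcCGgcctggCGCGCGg
Slc7a11: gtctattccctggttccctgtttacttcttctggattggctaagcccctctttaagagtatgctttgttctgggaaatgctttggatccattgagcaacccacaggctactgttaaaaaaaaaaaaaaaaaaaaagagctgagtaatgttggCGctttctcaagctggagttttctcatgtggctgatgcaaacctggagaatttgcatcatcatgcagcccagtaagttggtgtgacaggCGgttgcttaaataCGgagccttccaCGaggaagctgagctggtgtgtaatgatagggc
Grrp1: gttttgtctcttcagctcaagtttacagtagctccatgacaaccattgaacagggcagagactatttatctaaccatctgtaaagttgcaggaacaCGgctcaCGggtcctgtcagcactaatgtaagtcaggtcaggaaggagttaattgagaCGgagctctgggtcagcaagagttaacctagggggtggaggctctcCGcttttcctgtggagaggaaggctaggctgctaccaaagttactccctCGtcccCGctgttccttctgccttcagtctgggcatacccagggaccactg
The promoters of Sp9 and Irx2 hold 25 CpG each, a number reached by 18.4% of the 32851 mouse promoters in the RefSeq table. Those of Slc7a11 and Grrp1 hold 4 and 6, reached by 68.6% and 56.4%, and the median over all promoters is 7. The promoters of Tlx3, also from the CpG-rich end, and Ntf3, from the CpG-poor end, are not printed and hold 18 and 12.

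Peaks at least 5000 bp wide were nearly equally frequent in both species, 4123 (2.91%) of the 13LGS and 3944 (2.90%) of the mouse H3K4me1 peaks. Among them the domains made up 2.35% (1.93 to 2.86) in 13LGS and 8.39% (7.57 to 9.30) in mouse. In bases, they covered 607051 bp, or 0.327% of all H3K4me1 territory, in 13LGS and 2050327 bp, or 1.16%, in mouse. Wide peaks without another peak were thus the exception in both lists, and 3.41 times as numerous in mouse.

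The list that most often overlapped a wide peak was H3K27ac, at 89.8% of wide peaks in 13LGS and 74.8% in mouse. Otx2 overlapped 65.9% and 66.0%, H3K4me3 28.3% and 28.8%, and Neurod1 14.9% and 17.8%, so the shares of Otx2 and H3K4me3 were close in both species, that of Neurod1 was higher in mouse, and that of H3K27ac was higher in 13LGS. H3K27ac was the sole mark on 967 wide peaks in 13LGS and 759 in mouse. With the H3K27ac list left out of the rule, an alternative added after the data were seen, the rule would select 1064 and 1090 domains, a ratio of 1.02. The 13LGS H3K27ac list held 93999 peaks from 1 library and the mouse list 62930 from 2. With every list cut to the same number of peaks in both species the counts were 156 and 343, a ratio of 2.20. The part of list length and library number in the species difference was not tested further.

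The share of H3K4me1 peaks without another peak fell steadily with width. It was 79.5% in 13LGS and 84.5% in mouse below 500 bp, 42.8% and 56.2% between 1000 and 2000 bp, and 3.59% and 11.9% between 5000 and 6000 bp. Above 10000 bp, 2 of 595 peaks in 13LGS and 8 of 493 in mouse were free of other peaks. The mouse share lay above the 13LGS share in each width class, with overlapping intervals in the 2 classes from 8000 bp upwards.

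**Figure D1:**
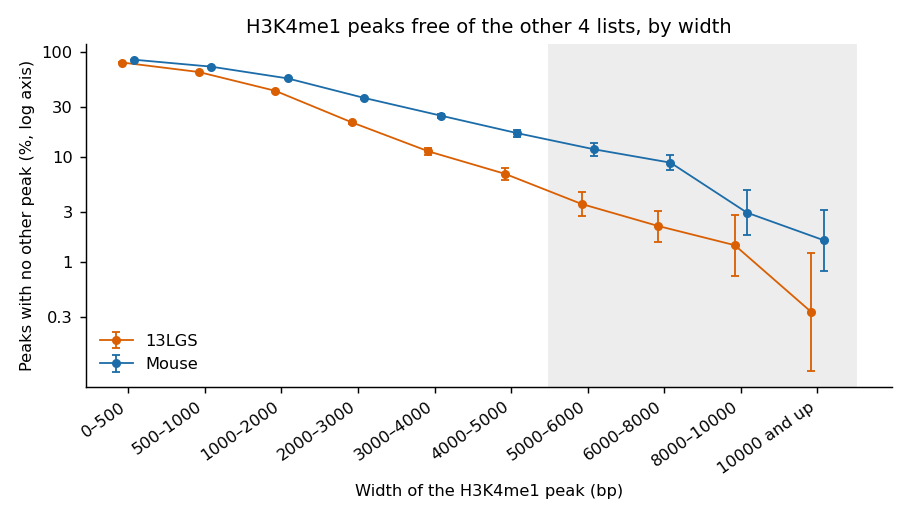
Share of H3K4me1 peaks that overlap no H3K4me3, H3K27ac, Otx2, or Neurod1 peak (log axis), by peak width in bp, for 13LGS and mouse; bars are 95% Wilson intervals and the shaded classes hold the domains. The share falls from 79.5% to 0.336% in 13LGS and from 84.5% to 1.62% in mouse.

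Domains of both species had nearly the same width, with a median of 5895 bp in 13LGS (quartiles 5317 and 6745) and 5892 bp in mouse (5370 and 6562). Their median fold enrichment over IgG, the ratio that macs2 gives at the summit, was 9.61 in 13LGS (range 3.69 to 26.1) and 12.8 in mouse (3.58 to 36.9). The median −log10 q was 54.7 and 57.1. The narrower H3K4me1 peaks without another peak had lower median folds, 3.33 and 3.72. Width is in the rule, and its part in this contrast was not tested. Wide peaks that did overlap another list were wider (medians 6533 and 6494 bp) and more enriched (13.6 and 14.2). Since fold is computed within each species against its own IgG, its level is not compared between species.

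**Figure D2:**
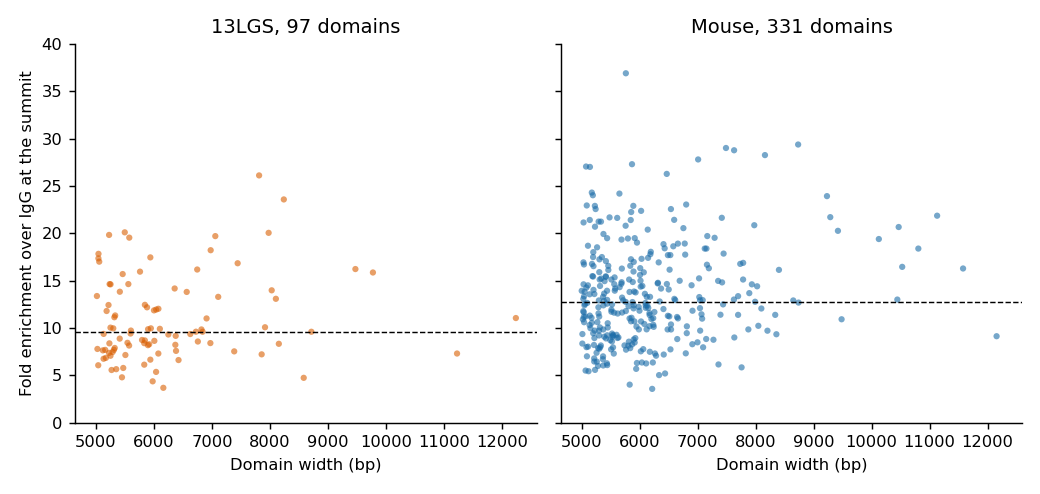
Fold enrichment over IgG at the summit against width (bp) for each of the 97 domains in 13LGS and 331 in mouse; each point is 1 domain and the dashed line is the median, 9.61 in 13LGS and 12.8 in mouse. Most domains are narrower than 8000 bp, and 10 in 13LGS and 23 in mouse are wider.

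The threshold cut through a continuum of widths. The narrowest members were 5016, 5025, and 5039 bp wide in 13LGS, with folds of 13.4, 7.80, and 6.07, and 5002, 5013, and 5014 bp in mouse, with folds of 13.9, 8.36, and 9.37. The widest H3K4me1-only peaks just below it measured 4995, 4978, and 4969 bp with folds of 7.51, 19.1, and 10.7 in 13LGS, and 4997, 4997, and 4993 bp with folds of 8.32, 7.44, and 8.53 in mouse. Folds on either side of the limit overlapped.

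The widest mouse domain covered 12154 bp in an intron of Trio (chr15:27953756-27965909), which encodes a guanine nucleotide exchange factor used in axon growth, at 9.14-fold. It was followed by an intronic domain of 11576 bp in Prdm16 (chr4:154496263-154507838, 16.3-fold), a zinc finger transcription factor. The next was 11129 bp in an intron of Fign (chr2:64071485-64082613, 21.9-fold), encoding the microtubule-severing protein fidgetin. A domain of 10805 bp covered an exon of Foxp2 (chr6:15404506-15415310, 18.4-fold), a forkhead factor of developing neurons, and one of 10527 bp an exon of Enc1 (chr13:97246810-97257336, 16.5-fold), an actin-binding protein of neurons. All 5 touched a protein-coding gene, as did 71.3% of all mouse domains, and their distance to the nearest peak of another list ranged from 2908 bp at Prdm16 to 9159 bp at Trio.

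The highest fold of a mouse domain, 36.9 (−log10 q 189), was reached in an intron of Efna5 (chr17:62623909-62629671), the gene of ephrin-A5, a guidance ligand that orders retinal axons in the tectum. Next came Hgf (chr5:16572782-16581514), the hepatocyte growth factor gene, with 29.4 over an exon. A domain 248 kb from the nearest protein-coding start, that of Gpc5 (chr14:114836831-114844319), had 29.0 and overlapped a gene of another class. Btbd3, a BTB domain protein that orients dendrites, followed with 28.8 at an internal transcript start (chr2:138273407-138281035), and Adgrl2, an adhesion receptor of the latrophilin family, with 28.3 in an intron (chr3:148942544-148950704). The nearest peak of any other list was 8534 bp away at Adgrl2, 9034 bp at Efna5, and 65.1 kb at Hgf, against a median of 9152 bp over all mouse domains.

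In 13LGS, positions refer to the HiC_Itri_2 assembly, and genes were not assigned. The widest domain spanned 12238 bp on Itri6:42302014-42314251 at 11.1-fold, and the next 11224 bp on Itri15:63535245-63546468 at 7.31-fold. The others of the 5 widest were Itri3:149558658-149568431 (9774 bp), Itri1:159167262-159176733 (9472 bp), and Itri1:21930346-21939058 (8713 bp). The highest folds were 26.1 at Itri2:49171762-49179573, 23.6 and 20.1 at Itri11:86811492-86819729 and Itri11:105156514-105162009, 20.1 at Itri17:20996366-21004341, and 19.8 at Itri3:143969590-143974815. None of the 5 widest was among the 5 of highest fold, in 13LGS or in mouse.

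The summit lay within 20% of the width from an end of the domain in 29 of 97 (29.9%, 21.7 to 39.6) in 13LGS, against 16.6% (15.5 to 17.8) of the wide peaks with another peak. In mouse this held for 53 of 331 domains (12.5 to 20.3%) and 16.7% of the wide peaks with another peak. A summit near an end was thus more frequent among the domains in 13LGS, and in mouse the intervals overlapped. Summits in the central 20% of the width did not separate the classes, with overlapping intervals. Their shares were 26.8% (19.0 to 36.4) against 28.3% (26.9 to 29.7) in 13LGS, and 25.7% (21.3 to 30.6) against 29.7% (28.2 to 31.2) in mouse. The median distance from summit to nearer end was shorter for domains, 1947 against 2187.5 bp in 13LGS and 1834 against 2206 bp in mouse. The part of peak width in these distances was not tested.

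All domains lay on the 19 and 20 large sequences of the assemblies. Itri3 held the most in 13LGS, 17 of 97 (17.5%, against 11.4% of all wide peaks). Among sequences with few domains, Itri17 held 6 (6.19% against 2.55%), Itri19 held 3 (3.09% against 0.582%), Itri6 held 3 (3.09% against 9.73%), and Itri10 none (1.43% of wide peaks). In mouse, chr2 held the most, 34 of 331 (10.3% against 8.60% of wide peaks), chr3 held 30 (9.06% against 7.15%), and chr1 held 14 (4.23% against 7.53%). Domains were mostly solitary, since 6 of 97 in 13LGS and 38 of 331 in mouse lay within 50 kb of another domain. These formed 3 pairs in 13LGS and 17 groups in mouse, of which 4 held 3 domains, in Clybl, Arid1b, Pdzrn3, and Nectin1.

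Other H3K4me1 peaks lay close to the domains. The next H3K4me1 peak of any width was a median 1066 bp away in 13LGS and 834 bp in mouse. For narrower H3K4me1-only peaks these medians were 1617 and 1406 bp, so a close neighbour was not particular to the domains. From the domains, the nearest peak of any of the other lists was a median 6223 and 9152 bp away. It lay within 1000 bp of 4 domains in 13LGS and 13 in mouse. By list, the medians were 12828 and 14753 bp for Otx2, 14795 and 16969 bp for H3K27ac, 47665 and 61518 bp for H3K4me3, and 141986 and 198743 bp for Neurod1, an order shared by both species. An H3K27ac peak was the closest of the 4 in 47 of 97 and 146 of 331 domains.

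Against narrower H3K4me1-only peaks, the 13LGS domains had Otx2 closer (12828 against 25441 bp) and H3K27ac farther (14795 against 9837 bp). In mouse the domains also had Otx2 closer (14753 against 21173 bp), while the H3K27ac medians were 16969 and 18196 bp. An Otx2 peak lay within 10 kb of 45.4% of the domains and 29.4% of the narrower peaks in 13LGS, and of 38.4% and 33.0% in mouse. Within 1000 bp the order was the other way, with Otx2 at 0 of 97 domains against 2.90% of narrower peaks in 13LGS and at 2.11% against 3.91% in mouse. The shorter median gap was not particular to Otx2, since in 13LGS the domains also lay closer to H3K4me3 (47665 against 72283 bp) and Neurod1 (141986 against 238062 bp). To a peak of any of the 4 lists the medians were 6223 against 6337 bp in 13LGS and 9152 against 8414 bp in mouse. The rule used the absence of all 4 lists, and the gaps run between the edges of peaks.

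**Figure D3:**
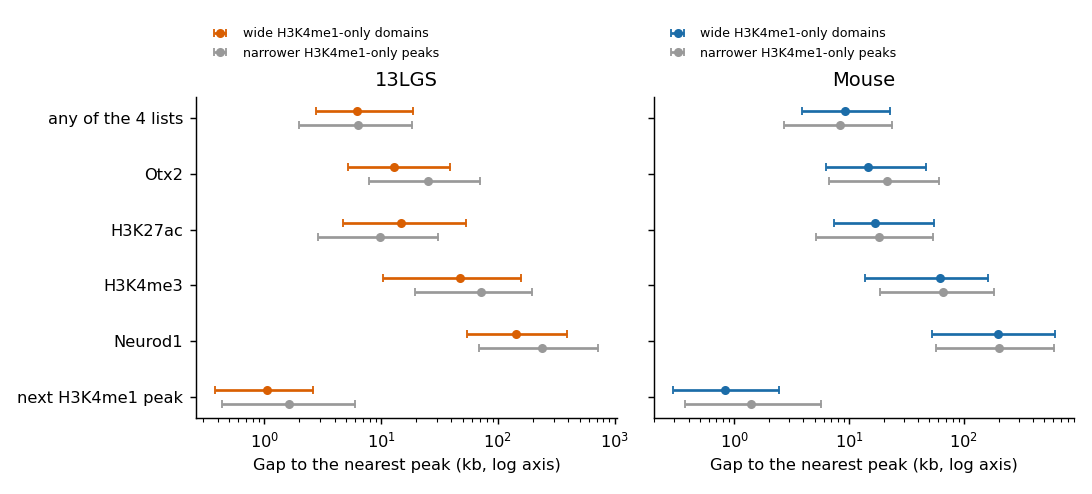
Gap in kb (log axis) from wide H3K4me1-only domains (coloured) and narrower H3K4me1-only peaks (grey) to the nearest peak of each list, for 13LGS and mouse; points are medians and bars the quartiles. The median gap to Otx2 is 12.8 kb for domains and 25.4 kb for narrower peaks in 13LGS, and 14.8 and 21.2 kb in mouse, while the gap to any of the 4 lists is similar for both.

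Mouse domains were annotated with GENCODE M21. Of the 331, 236 (71.3%, 66.2 to 75.9) touched a protein-coding gene, against 75.1% of the wide peaks with another peak and 56.2% of narrower H3K4me1-only peaks. Introns alone accounted for 155 domains (46.8%, 41.5 to 52.2), a transcript start for 44 (13.3%, 10.1 to 17.4), and an exon without a start for 37 (11.2%). Another 29 touched a gene of another class alone, and 66 (19.9%) lay outside genes. Wide peaks with another peak covered a start more often (24.9%) and narrower H3K4me1-only peaks less often (2.98%), and neither interval met that of the domains. Width and the absence of H3K4me3 are in the rule, and their part in these shares was not tested. The median distance to the nearest protein-coding start was 22.8 kb, between 10.5 kb for the wide peaks with another peak and 29.9 kb for the narrower ones. No miRNA hairpin of the RefSeq table overlapped a domain.

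The domains at transcript starts fell into 2 kinds. In 24 the domain covered the annotated 5′ end of a protein-coding gene (25 genes, since Rsrc1 and Shox2 share a domain on opposite strands). In the other 20 it covered an internal start of a longer gene whose 5′ end lay outside. By construction, no H3K4me3 or H3K27ac peak overlaps the covered starts or the rest of the domain. For all 25 genes neither mark lay within 1 kb of the 5′ end, which the rule thus largely sets in advance. Of the 20 genes with an internal start, 15 had an H3K4me3 peak within 1 kb of their 5′ end, a share equal to the 75.0% of all genes with a domain in the body. Among them were Tcf7l2 and Smad2, mediators of Wnt and TGF-beta signals, Dicer1, which cuts microRNA precursors, Dclk1, a microtubule-associated kinase, and Utrn, a relative of dystrophin.

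Domains over a 5′ end were richer in CpG in the median than the other domains, with overlapping ranges. CpG observed over expected, the number of CG dinucleotides relative to that given by the C and G content, had a median of 0.60 at the 24 domains over a 5′ end, 0.28 at the 20 over an internal start, and 0.23 at the 287 without a start. A ratio of at least 0.6, a common criterion for CpG islands, was met by 13 domains, all of them over a transcript start and 12 over a 5′ end. It was met by 0 of 287 domains without a start (upper Wilson bound 1.32%). Among the 5′ end domains it was met by 12 of 24 (31.4 to 68.6%), against 7.05% (4.89 to 10.1) of the 383 wide peaks with another peak over a 5′ end and 22.9% (20.6 to 25.3) of the 1232 narrower H3K4me1-only peaks. The ratio was no part of the rule, but H3K4me3, which is usual at CpG-rich starts, was, and its part in these shares was not tested. H3K27me3 was not analysed here.

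**Figure D4:**
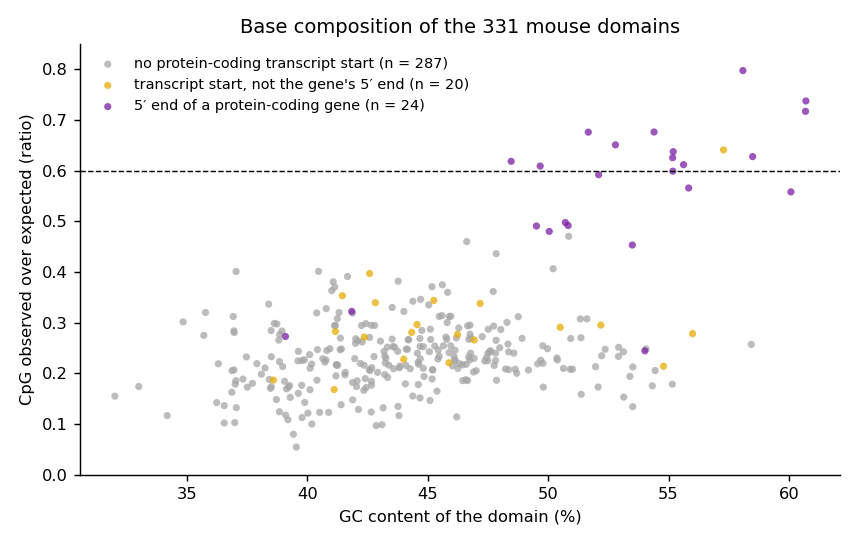
CpG observed over expected (ratio) against GC content (%) of the 331 mouse domains, coloured by what the domain covers; the dashed line is a ratio of 0.6. Of the 13 domains above the line, 12 cover the 5′ end of a gene and 1 an internal start.

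The genes of these starts are named here after their values were seen. The highest CpG ratios belonged to the domains at Sp9 (0.80), a zinc finger factor of forebrain interneurons and limb, Tlx3 (0.74), a homeobox gene of sensory and spinal neurons, and Irx2 (0.72), an Iroquois homeobox gene. Their folds were 9.22, 7.99, and 6.80, all under the mouse median. Further homeobox genes above 0.6 were Lhx8 of cholinergic forebrain neurons (0.68, 16.2-fold), Alx1 of the craniofacial mesenchyme (0.62, 11.2-fold), and Shox2 of limb and sinus node (0.61, 11.8-fold). Other transcription factor genes were Fezf1 of the forebrain (0.65, 16.3-fold), Dmrt3 of spinal interneurons (0.64, 7.97-fold), Gfi1, a repressor of blood and inner ear development (0.63, 8.84-fold), and the forkhead gene Foxb2 (0.63, 12.5-fold).

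Genes of signals and of their breakdown were present above 0.6 as well, namely Npr3, the clearance receptor of natriuretic peptides (0.68, 11.6-fold), Cyp26b1, which breaks down retinoic acid and was covered at an internal start (0.64, 9.26-fold), and Gdnf, a neurotrophic factor (0.61, 11.0-fold). Distances from H3K4me3, whose absence from the domain is in the rule, varied widely. They are measured here from the 5′ end of the gene, whereas the median of 61.5 kb for all mouse domains runs from the domain edge. The nearest H3K4me3 peak was 699 kb from the 5′ end of Irx2, 372 kb from Dmrt3, 371 kb from Fezf1, 287 kb from Gdnf, 266 kb from Lhx8, and 206 kb from Alx1. It was 178 kb from Cyp26b1 and 92.3 kb from Foxb2. It was 45.5 kb from Npr3, 39.7 kb from Sp9, 39.6 kb from Tlx3, 37.6 kb from Gfi1, and 3651 bp from Shox2.

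The other 5′ end domains had ratios from 0.24 to 0.60. They included the transcription factor genes Osr2 (0.59), Fli1 (0.57), and Tbr1 (0.50), the splicing regulator Esrp1 (0.60, just under the limit), the glycine transporter Slc6a5 (0.49), the neuropeptide PACAP gene Adcyap1 (0.48), and the neurotrophin Ntf3 (0.45). Adcyap1 had the highest fold of the 5′ end domains, 20.8, and its 5′ end lay 1550 kb from the nearest H3K4me3 peak. The lowest ratios were at Sostdc1 (0.32), a BMP and Wnt antagonist, Slc7a11 (0.27), the cystine transporter, and Grrp1 (0.24).

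Over all mouse domains, GC content was 44.3% in the median, against 42.9% in flanks of the same width on either side, and exceeded the flanks in 223 of 331. The CpG ratio was 0.23 against 0.21 in the flanks, and was higher in 219 of 331. Bases masked as repeats made up 14.7% against 21.1% in the flanks, and the domain held more of them than its flanks in 57 of 331. Wide peaks with another peak likewise had GC of 45.6% against 44.3%, masked bases of 15.3% against 22.5%, and more masked bases than the flanks in 524 of 3613. Their CpG ratio exceeded the flanks in 55.9% (54.2 to 57.5), against 66.2% (60.9 to 71.0) of the domains. A low repeat content was thus shared by wide H3K4me1 peaks with and without other peaks.

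TAATCC occurred on either strand within 300 bp windows at the summit in 27 of 331 domains (8.16%, 5.67 to 11.6), in 9.69% (8.77 to 10.7) of the wide peaks with another peak, and in 13.1% (12.8 to 13.3) of narrower H3K4me1-only peaks. CAGATG occurred in 26.0% (21.6 to 31.0), 28.3% (26.9 to 29.8), and 26.5% (26.2 to 26.8). Neither motif contains the other. At the summit the domains held the Otx2-type core less often than the narrower peaks, and so did the wide peaks with another peak. In 1000 bp windows at the summit TAATCC was in 29.3% (24.7 to 34.4) of domains and 29.5% (28.1 to 31.0) of wide peaks with another peak. The narrower peaks had 35.5% (35.2 to 35.8). A lower share was thus not particular to the domains. For the Neurod1-type E-box the interval of the domains overlapped those of both other classes, which did not overlap each other. With windows at the midpoint the TAATCC share was 9.37% (6.68 to 13.0) of domains against 13.2% of the narrower peaks, and the intervals touched. For CAGATG the wider and shifted windows gave another picture. At the midpoint it was found in 19.3% (15.4 to 23.9) of domains, 22.4% (21.1 to 23.8) of wide peaks with another peak, and 25.9% (25.6 to 26.2) of narrower peaks. In 1000 bp at the summit the shares were 53.2% (47.8 to 58.5), 60.8% (59.2 to 62.4), and 59.0% (58.7 to 59.4), so in those windows the domains held it less often than the narrower peaks.

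A domain lay in the body of 212 protein-coding genes, and these were long, with a median of 170 kb against 17.4 kb for all 21951. Their own 5′ ends usually carried H3K4me3, in 159 of 212 (75.0%) against 52.6% of all genes. For the 139 genes of 100 kb or more with a domain the share was 84.2%, against 68.8% of all genes of that length. Within 10 kb of a domain lay 235 genes, or 1.07% of all protein-coding genes and 5.78% of those of 100 kb or more. Of these 235 genes, 120 (51.1%, 44.7 to 57.4) also had a wide H3K4me1 peak with another peak within 10 kb, against 9.92% of all protein-coding genes. A long gene has more room for any peak, and apart from the comparison at 100 kb the part of gene length was not tested.

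Arid1b, a subunit of the BAF chromatin remodelling complex, held 4 domains, the most of any gene. They lay in introns 26.2, 199, 222, and 241 kb from its start, were 5058, 5442, 5740, and 5179 bp wide, and had folds of 12.5, 6.09, 8.17, and 16.8. The gene was otherwise densely marked, with 52 H3K27ac, 10 Otx2, and 3 H3K4me3 peaks in the body, and the nearest other peak lay 1406 to 18395 bp away.

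Pdzrn3, encoding a ubiquitin ligase, had 3 intronic domains of 9.35- to 10.3-fold and 31 H3K27ac peaks in its body. Nectin1, a cell adhesion gene of 63.5 kb, had 3 in a row within 20.7 kb of intron, at 16.7-, 15.6-, and 15.1-fold. Efna5 had 3, of which the strongest of all mouse domains lay near its 3′ end, 252 kb from the start, and the other 2, of 12.9- and 11.6-fold, 61.3 and 50.4 kb from it. The domains of one gene thus differed widely in strength in Efna5 and little in Nectin1.

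Clybl, a mitochondrial enzyme gene, had 3 domains at its 3′ end with folds of 9.73, 23.0, and 15.0 and CpG ratios of 0.36, 0.38, and 0.44. Those of Prdm16 (16.3- and 10.1-fold), Foxp2 (24.2- and 18.4-fold), the Arf regulator Agap1 (11.0- and 12.7-fold), the teneurin Tenm4 (17.0- and 13.4-fold), and the homeobox gene Pbx3 (10.5- and 14.4-fold) came as 2 each. Prdm16 had no H3K27ac peak in its body and Pbx3 had 1, while Tenm4 had 22. In all, 21 genes held 2 or more domains and 5 held 3 or more, and those named with 2 have the most bases of domain in the body. H3K4me3 stood at the 5′ end of each of the 10 genes named here except Tenm4.

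Gene lists were read against the background of 1.07% of genes with a domain within 10 kb. No gene of 15 photoreceptor precursor factors (0%, up to 20.4%) and none of 21 phototransduction genes (0%, up to 15.5%) had one. The counts were 2 of 15 eye field and progenitor factors, 2 of 20 factors of ganglion, amacrine, and horizontal cells, 1 of 18 bipolar and Müller glia genes, 5 of 38 axon guidance genes, 7 of 42 neuronal adhesion and synapse genes, 4 of 34 Notch and Wnt pathway genes, and 2 of 34 regulators of other lineages. The lists of axon guidance and adhesion hold long genes, with medians of 195 and 518 kb, and among members of 100 kb or more the counts were 4 of 30 and 7 of 37, against 5.78% of such genes. Lists of this size give wide intervals. For the whole lists, whose background is 1.07%, they were 5.75 to 27.3% for axon guidance and 8.32 to 30.6% for adhesion. No interval was computed for the long members.

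**Figure D5:**
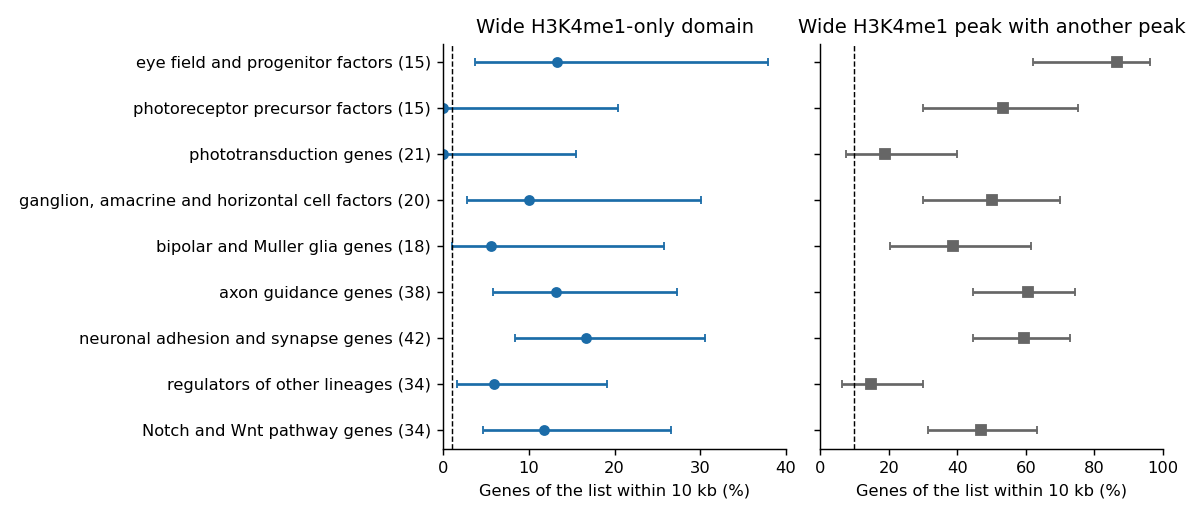
Percent of the genes of each list (number of genes in brackets) with a wide H3K4me1-only domain (left) or a wide H3K4me1 peak with another peak (right) within 10 kb in mouse; bars are 95% Wilson intervals, dashed lines the share of all protein-coding genes, 1.07% and 9.92%, and the axes differ. The intervals are wide, and a list of 15 genes without a domain, such as the photoreceptor precursor factors, lies within what the background share gives.

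Wide H3K4me1 peaks with another peak were found near 8 of the 15 photoreceptor precursor factors and 13 of the 15 eye field and progenitor factors. The share of all protein-coding genes was 9.92%. In the other retinal lists they were near 10 of 20 ganglion, amacrine, and horizontal cell factors, 7 of 18 bipolar and Müller glia genes, and 4 of 21 phototransduction genes. The corresponding counts were 23 of 38 axon guidance genes, 25 of 42 adhesion genes, 16 of 34 Notch and Wnt pathway genes, and 5 of 34 regulators of other lineages. The part of gene length in these counts was not tested. Since 331 of 3944 mouse wide peaks are domains, most wide peaks of the whole list overlap another list. This does not hold at every gene. Of the 235 genes with a domain, 120 also had a wide peak with another peak within 10 kb.

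The axon guidance genes with a domain were the ligand genes Efna5 and Sema5a and the receptor genes Nrp2, Robo2, and Unc5b. The domain of Nrp2, a semaphorin receptor, was intronic at 15.2-fold. That of Robo2, a Slit receptor, was intronic at 13.8-fold, that of Sema5a at 13.6-fold, and that of Unc5b, a netrin receptor, at 7.50-fold with another peak 841 bp away. Apart from the strongest domain of Efna5, the folds of this group ranged from 7.50 to 15.2, around the mouse median of 12.8.

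The adhesion genes were Cdh4, a classical cadherin (15.9-fold), Cntn4, a contactin (22.9-fold, over an exon), Negr1, an immunoglobulin-type adhesion molecule (11.2-fold), Nlgn1, a postsynaptic neuroligin (22.4-fold), and the teneurins Tenm1 (14.6-fold), Tenm2 (18.9-fold, over an exon), and Tenm4. The teneurins are transmembrane proteins that link neurons across synapses. The gap to the nearest other peak ranged from 599 bp at Cdh4 to 63.3 kb at Tenm1.

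In the Notch and Wnt list, Notch2 (16.9-fold) and Lef1 (21.7-fold), a receptor and a nuclear effector, had intronic domains. The Notch ligand gene Jag1 had one over an exon (14.6-fold), and Tcf7l2, the partner of beta-catenin, one at an internal start (10.1-fold). Of these 4, the Tcf7l2 domain lay under the mouse median of 12.8-fold and the others above it.

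Among retinal cell type genes, the eye field gene Pax6 had a domain 3231 bp downstream of its 3′ end at 6.47-fold, with another peak 930 bp away. This domain covers an exon of the neighbouring gene Elp4, which encodes an Elongator subunit and holds 2 domains. Nfib, a factor of late progenitors, had one in an intron (17.7-fold), and Ebf1, a factor of several neuron types, had 2 (13.8- and 13.3-fold). Irx2 had the domain over its 5′ end described above, and the kinase gene Prkca of rod bipolar cells an intronic one (8.30-fold). The 2 regulators of other lineages were Foxa2 of endoderm and floor plate, with a domain 1084 bp downstream (9.07-fold), and Pax7 of muscle and neural crest, with an intronic one (10.3-fold). The nearest peak of another list was 79.1 kb from the Foxa2 domain and 42.6 kb from that of Pax7.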

How the data were processed

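The libraries were CUT&RUN of nuclei from P5 13LGS and P2 mouse retina. The authors trimmed reads with cutadapt 3.5 and Trim Galore 0.6.4, aligned them with Bowtie2 to HiC_Itri_2 and GRCm38, filtered with SAMtools 1.12, removed duplicates, and merged technical replicates; macs2 then called peaks at a q-value of 0.05 against IgG, jointly over the libraries of a target. Blacklisted regions were removed in mouse alone. The deposited fold enrichment is a ratio of pooled signal to IgG, and the −log10 q is as the authors gave it; neither was rescaled. Duplicate removal and joint calling hide depth and replicate spread, and wide peaks depend on how macs2 joins enriched stretches.

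Overlaps and distances were computed with pandas 2.3.3 and numpy 2.4.6 under Python 3.11.15, Wilson intervals with scipy 1.17.1, and plots with matplotlib 3.10.9. The overlap code was checked on 629 simulated intervals against bedtools 2.31.1, with 0 differences. Mouse annotation came from GENCODE M21, sequence from GRCm38, and promoters from the RefSeq table, which held 18 of the 25 genes with a 5′ end in a domain. No annotation of the 13LGS assembly was used here. The members and lists were chosen with earlier results of these data known. Named are the 5 widest and 5 most enriched domains per species, those next to the width limit, the 10 genes with most domains in the body (ties by domain bases), and list genes with a domain within 10 kb. The genes at covered starts were named after their values were seen. Some genes of that set are not reported here.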

Additional observations from a re-analysis of the deposited data

How the results depend on the processing

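No paired analysis was possible because each list pools all libraries of a target, and for the same reason no replicate could be left out. The number of domains depended on the limits. In 13LGS and mouse, in that order, it was 304 and 820 at a width of 4000 bp, 42 and 147 at 6000 bp, and 10 and 23 at 8000 bp. It was 299 and 697 with the other lists limited to a −log10 q of at least 5, and 194 and 599 with H3K4me1 peaks within 500 bp merged. With equal numbers of peaks per list it was 156 in 13LGS, and the ratio of mouse to 13LGS was 2.20. In settings added after the data were seen, leaving the Otx2 list out of the rule gave 182 and 561, and leaving the H3K27ac list out gave 1064 and 1090 with a ratio of 1.02. The ratio stayed above 1 in all 12 settings. Mouse genes within 10 kb of a domain numbered 520 at a width of 4000 bp. Counting all annotated genes, 80.1% of mouse domains touched a gene. TAATCC was found in 29.3% and CAGATG in 53.2% of 1000 bp windows, and CAGATG in 19.3% of 300 bp windows at the midpoint. The median distance to another peak was 10145 bp in 13LGS and 13089 bp in mouse with a −log10 q of at least 5. Apart from the midpoint, these settings admit more or fewer peaks or genes, or wider windows. The causes of the changes in the species ratio and at the midpoint were not tested. The remaining 27 values stayed within 1.5 times the reported count or within its interval. A CpG ratio of at least 0.5, also added later, gave 17 domains, all over a transcript start. Since depth is unknown, a domain may hold other marks below the level of detection, and no difference between the species has a replicate check.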
